A study of Mus musculus with 2 samples.

Results

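The VEGF and angiopoietin genes described here are 5 ligands (Vegfa, Vegfb, Vegfc, Angpt1 and Angpt2) and 5 receptors (Kdr, Flt1, Flt4, Tek and Tie1). They were chosen by name for their place in these pathways, with earlier results of these data known, and make up 10 of the 32287 features of the count matrix. The genes were read across cell classes of denervated hind limb muscle. The cells came from S100GFP-tg mice with wild-type Sod1, in which enhanced green fluorescent protein is driven by the S100B promoter. The sciatic nerve was crushed, and the tibialis anterior and gastrocnemius muscles were taken at 7 dpi (days post injury). The mice of the single-cell experiment were 2 months old and male. The methods describe pooled male animals and the series description a single crushed mouse, so the number of animals is not certain. Viable cells were sorted into a GFP+ and a GFP- fraction, each of which gave 1 droplet library. Counts from the GFP- fraction were not analysed here, and there was no uninjured library, so levels are compared between cell classes of 1 library and not between conditions.

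VEGF ligands are secreted proteins that act on receptor tyrosine kinases of the endothelium. Vegfa acts through Kdr, the main signalling receptor of blood vessel growth, and binds more tightly to Flt1, which in part acts as a decoy. Vegfb binds Flt1, and Vegfc acts through Flt4, the receptor best known from lymphatic vessels. Angpt1 activates the receptor Tek and steadies the vessel wall. Angpt2 binds the same receptor and, depending on the setting, blocks or activates it, while Tie1 is a partner of Tek with no ligand of its own that is firmly established.

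The GFP+ library held 36400 barcodes and 170648616 UMIs (unique molecular identifiers, each standing for 1 captured RNA molecule). Of the 8894 barcodes with at least 5000 UMIs, 8701 passed the filters on genes and mitochondrial counts, with a median of 11624 UMIs. A barcode was placed in a class when it held enough UMIs of that class's marker genes, none of which is one of the 10 genes. In this way 8058 barcodes (92.6%) were placed, 462 that passed the gates of several classes were left out as mixed, and 181 passed no gate. The classes were macrophage-like (5586 cells), fibroblast-like (1270), tenocyte-like (408), dendritic-like (394), satellite cell-like (183), Schwann-like (75), smooth muscle-like (42), blood endothelial-like (32), muscle fibre-like (20), T and NK-like (12), erythroid-like (10) and perineurial-like (10). Lymphatic endothelial-like cells (7) and pericyte-like cells (6) are given apart from the order of levels because they are so few. The markers in each class were read as a description, since the same lists set the gates. All 13 blood endothelial markers had UMIs in the blood endothelial-like cells, with Cdh5 and Pecam1 in 32 of 32. The T and NK-like class leaned to NK genes, with 207 Nkg7, 68 Ncr1 and 40 Klrb1c UMIs. Its T cell genes had fewer, with 39 of Trbc2 (in 7 of 12 cells), 13 of Cd3d, 5 of Cd3g, 3 of Trac and 1 of Cd3e. In 2 classes the list of a related class stood higher than their own. Perineurial-like cells held 13150 CPM of the fibroblast list and 1245 CPM of the perineurial list, with Slc2a1 in 10 and Cldn1 in 9 of 10 cells, and dendritic-like cells 3316 CPM of the macrophage list and 1882 CPM of the dendritic list. A sort on GFP sets which cells enter the library, so class sizes are not shares of the muscle. The reporter itself, Gfp, stood at 634.7 CPM in Schwann-like and 470 CPM in macrophage-like cells. In 2 macrophage-like subsets described below it was above the Schwann-like level, at 1080 CPM in infiltrating monocyte-like and 807.1 CPM in lipid-associated cells. Gfp was nearly or fully missing in the vessel-lining cells, with 2 UMIs in the 32 blood endothelial-like and none in the 7 lymphatic endothelial-like cells. The 20 muscle fibre-like and 10 erythroid-like cells also held none. Of the barcodes kept, 84 had a sequence that also occurs in the GFP- library. Without them, all 22 of 22 levels and folds stayed within their intervals, in a setting added after the data were seen.

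Levels are given as CPM, the UMIs of a gene for each 1000000 UMIs of a class, and compared between classes for 1 gene at a time. Values in parentheses after a level, share or fold are 95% intervals for the error of counting alone. The single library allows no replicate and no test, and the spread between animals is unknown. A class named as leading was picked by its level, so its fold over other cells is a description.

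In blood endothelial-like cells 4 receptors had many UMIs, with 517 of Flt1, 114 of Kdr, 77 of Tek and 64 of Tie1. Their promoter sequences are shown because these genes shared 1 leading class, and because factors of the ETS family are known regulators of endothelial genes. Each sequence is the 250 bases before the start of transcription, read 5′ to 3′ on the gene's strand, from RefSeq on GRCm38.p6. Capitals mark the letters AGGAA or, for the other strand, TTCCT, a core that ETS factors bind. The windows are chr5:75978456-75978705 (minus strand) for Kdr, chr5:147726012-147726261 (minus) for Flt1, chr4:94739039-94739288 (plus) for Tek and chr4:118489850-118490099 (minus) for Tie1.

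Kdr: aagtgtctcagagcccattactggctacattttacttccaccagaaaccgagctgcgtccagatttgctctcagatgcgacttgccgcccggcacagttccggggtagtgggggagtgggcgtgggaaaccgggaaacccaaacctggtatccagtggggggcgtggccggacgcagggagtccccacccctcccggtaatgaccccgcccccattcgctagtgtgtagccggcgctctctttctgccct

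Flt1: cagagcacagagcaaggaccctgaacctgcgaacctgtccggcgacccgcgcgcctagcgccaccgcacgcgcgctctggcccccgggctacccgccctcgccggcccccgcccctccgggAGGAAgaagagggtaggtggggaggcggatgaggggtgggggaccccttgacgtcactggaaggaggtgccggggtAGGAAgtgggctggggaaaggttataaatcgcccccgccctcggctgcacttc

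Tek: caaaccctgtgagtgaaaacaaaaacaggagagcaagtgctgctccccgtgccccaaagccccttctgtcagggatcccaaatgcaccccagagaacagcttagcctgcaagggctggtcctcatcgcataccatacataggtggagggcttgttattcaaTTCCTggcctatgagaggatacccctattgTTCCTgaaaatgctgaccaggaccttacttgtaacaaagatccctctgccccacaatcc

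Tie1: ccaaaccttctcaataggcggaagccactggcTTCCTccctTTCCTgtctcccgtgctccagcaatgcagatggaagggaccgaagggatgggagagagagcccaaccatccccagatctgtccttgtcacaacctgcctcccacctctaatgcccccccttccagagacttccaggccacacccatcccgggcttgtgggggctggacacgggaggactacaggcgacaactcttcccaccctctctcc

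The motif was matched 2 times in each of the Flt1, Tek and Tie1 windows and not in that of Kdr, which shows that it was not shared by all 4. It is a common string, found on either strand in 60.3% of 32851 RefSeq promoter windows of this length. Windows were found for 8 of the 10 genes. Of the other windows, those of Vegfb, Vegfc and Flt4 had no match. The first of the Vegfa windows had 2 matches and the second none.

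Vegfa (chr17:46327919-46343309 on GRCm39, minus strand) encodes the main growth factor for blood vessels. Its highest level was in fibroblast-like cells, at 109.9 CPM (105.3 to 114.6). They held 2161 of the 4462 Vegfa UMIs of placed cells, or 48.4%. Macrophage-like cells stood at 28.6 CPM (27.3 to 29.9), and through their number they added another 44.2% of the UMIs. The fibroblast-like level was 3.84 times (3.61 to 4.09) that of macrophage-like cells. It was 4.07 times (3.84 to 4.32) that of all other placed cells together. After each cell was thinned to 5000 UMIs, 35.7% of fibroblast-like cells (33 to 38.4%) held a Vegfa UMI, compared with 6.95% of macrophage-like cells (6.29 to 7.64%). Blood endothelial-like cells, which receive the signal, held 3 UMIs in 32 cells, and none after thinning. T and NK-like cells came second in the order, at 98.3 CPM (57.2 to 157), but this rests on 17 UMIs of which 8 were in 1 cell. No neighbours in the order of the 12 classes differed beyond their counting intervals, so only wider steps, such as that from fibroblast-like to macrophage-like cells, are clear.

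**Figure D1:**
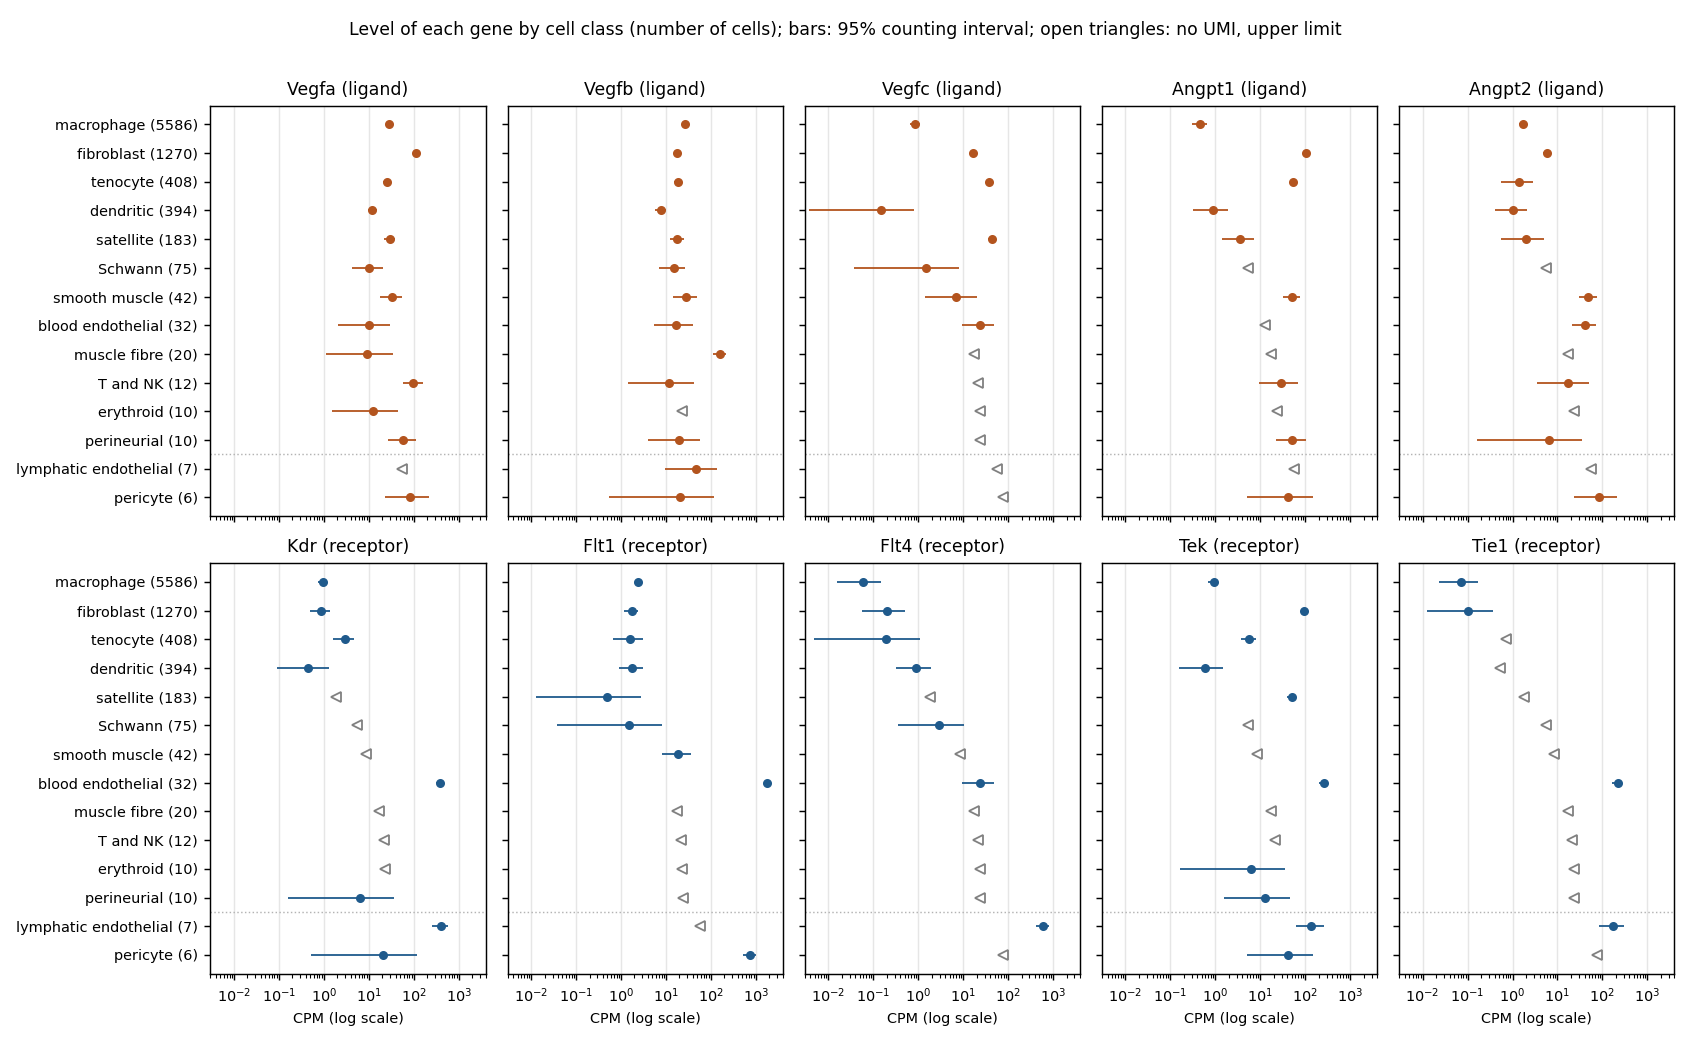
Level of the 10 genes in 14 cell classes, in CPM on a logarithmic axis, with the number of cells in parentheses. Points with bars are levels with 95% counting intervals and open triangles mark the upper limit where no UMI was found. Kdr, Flt1 and Tie1 stand far to the right in blood endothelial-like cells (386.5, 1753 and 217 CPM), whereas Tek is also high in fibroblast-like (93.2 CPM) and satellite cell-like cells (49.5 CPM), and Vegfa and Vegfb are spread over most classes.

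Within the macrophage-like class Vegfa differed widely between subsets gated on other genes. Resident-like cells (1567 cells, gated on Lyve1, Folr2, Timd4 and Cd163) stood at 2.32 CPM (1.73 to 3.05), with 51 UMIs. MHC class II high cells (1496) stood at 23.1 CPM (20.8 to 25.6). Infiltrating monocyte-like cells (597, gated on Ly6c2, Chil3, Ccr2 and Plac8) reached 60.4 CPM (54.8 to 66.5). Lipid-associated cells (338, gated on Gpnmb, Fabp5, Trem2 and Spp1) reached 100.5 CPM (92.6 to 109), which overlaps the fibroblast-like interval. The 4 subsets did not overlap in their intervals. The lipid-associated level was 43.3 times (32.5 to 58.9) the resident-like level and 1.66 times (1.47 to 1.89) that of the infiltrating monocyte-like cells. A Vegfa UMI was found in 27.8% (23.1 to 32.9%) of thinned lipid-associated cells, and in 140 of 338 before thinning, and the richest cell held 29. Cells without a UMI at this depth cannot be taken as cells without the message. The 1348 cells that passed no subset gate stood at 14.2 CPM, and the 240 cells that passed several at 70.8 CPM. In cycling macrophage-like cells (67) Vegfa was at 5.84 CPM (2.52 to 11.5), compared with 29.1 CPM (27.8 to 30.4) in the others.

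Vegfb (chr19:6958447-6965127, minus strand) encodes a ligand of Flt1 that is known from muscle and heart. Muscle fibre-like barcodes held the highest level, 159.2 CPM (110.3 to 222.5), from 34 UMIs in 11 of 20 barcodes. This was 5.74 times (2.9 to 12.2) the level of the next class, smooth muscle-like cells at 27.7 CPM (14.3 to 48.5). It was 5.96 times (4.11 to 8.36) that of macrophage-like cells, at 26.7 CPM (25.5 to 28). Below the first step no neighbours in the order differed beyond their intervals. Dendritic-like cells were low, at 7.74 CPM (5.8 to 10.1), and erythroid-like cells held none, which allows up to 19 CPM (3 counts). Shallower muscle fibre-like barcodes, with 2000 to under 5000 UMIs, were not used for these levels. There, 53 barcodes stood at 170.9 CPM (112.6 to 248.7). The muscle fibre-like barcodes had few mitochondrial counts, with a median of 0.149% compared with 3.73% in macrophage-like cells. The part of this in the Vegfb level was not tested.

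Over the macrophage-like subsets Vegfb had another order than Vegfa. Of the 4 subsets it was highest in resident-like cells, at 37.3 CPM (34.8 to 40), close to the 39 CPM (35.7 to 42.5) of cells past no subset gate, and lowest in infiltrating monocyte-like cells, at 4.98 CPM (3.47 to 6.92). The ratio of resident-like to infiltrating monocyte-like cells was 7.5 (5.35 to 10.8). It became 4.67 (3.69 to 5.97) when each cell was given to the subset whose list stood highest, a setting added after the data were seen. Lipid-associated cells were between, at 24.2 CPM (20.4 to 28.5), so the subset with the most Vegfa was not the one with the least Vegfb. Cell by cell, 5.93% (3.79 to 8.76%) of thinned macrophage-like cells with a Vegfa UMI also held one of Vegfb, compared with 12.6% (11.7 to 13.5%) of those without. Dendritic-like subsets showed smaller steps. Vegfa was at 17 CPM (11.3 to 24.6) in cDC2 and 4.4 CPM (2.56 to 7.04) in cDC1 cells, and the steps were 3.87 times (2.05 to 7.54) for Vegfa and, in the other direction, 2.62 times (1.1 to 7.6) for Vegfb.

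**Figure D2:**
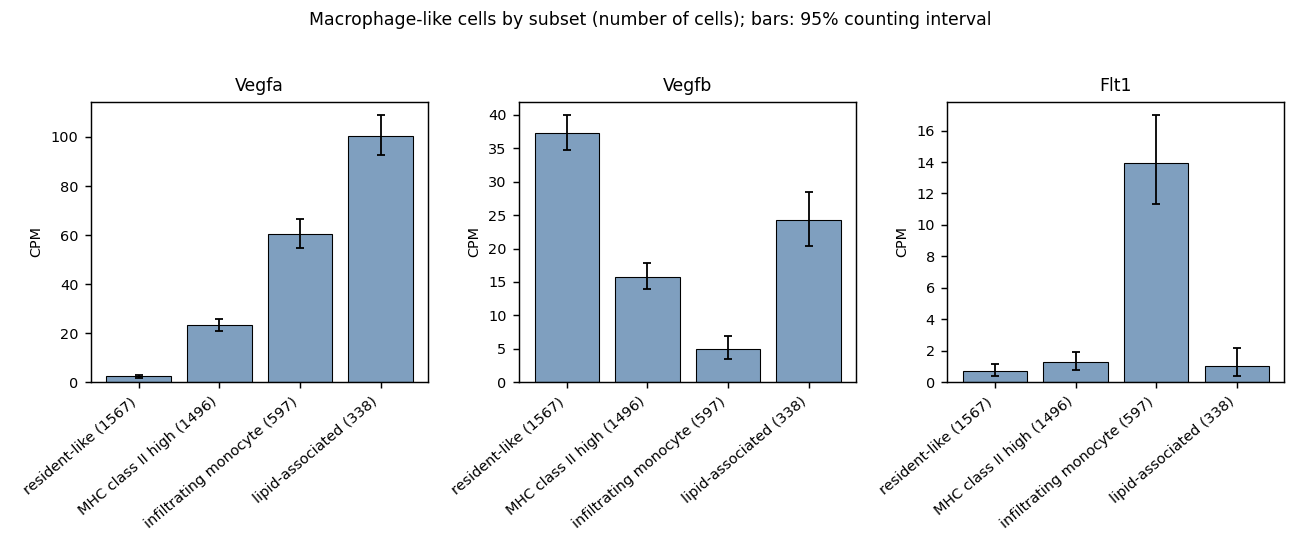
Levels of Vegfa, Vegfb and Flt1 in CPM in 4 subsets of macrophage-like cells, with the number of cells in parentheses and 95% counting intervals as bars. Vegfa climbs from 2.32 CPM in resident-like to 100.5 CPM in lipid-associated cells, Vegfb is highest in resident-like cells (37.3 CPM), and Flt1 stands out in infiltrating monocyte-like cells (13.9 CPM).

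Vegfc (chr8:54530257-54640131, plus strand) encodes the growth factor of lymphatic vessels. Satellite cell-like cells led with 44.5 CPM (35.8 to 54.8), from 89 UMIs in 52 of 183 cells. Tenocyte-like cells followed at 37.5 CPM (32.4 to 43.2), which did not differ beyond the counting error (ratio 1.19, 0.913 to 1.53). Fibroblast-like cells stood at 16.6 CPM (14.9 to 18.5), and tenocyte-like cells were 2.26 times (1.88 to 2.7) as high. Blood endothelial-like cells held 7 UMIs (23.7 CPM, 9.54 to 48.9), an interval that reaches both the fibroblast-like and the tenocyte-like level. Vegfc was sparse in the 2 large haematopoietic classes. Macrophage-like cells stood at 0.855 CPM (0.651 to 1.1) and the 394 dendritic-like cells held 1 UMI. Satellite cell-like cells were 52.1 times (37.1 to 73.7) higher than macrophage-like cells. In barcodes of 2000 to under 5000 UMIs, not used here, 3144 macrophage-like barcodes were at 2.32 CPM (1.46 to 3.52). The 14 satellite cell-like barcodes of that depth were at 84.4 CPM (27.4 to 196.9), from 5 UMIs. After thinning, 14.8% (9.95 to 20.7%) of satellite cell-like cells held a UMI, compared with 0.43% (0.275 to 0.639%) of macrophage-like cells, whose median depth was 11224 UMIs compared with 9520. Among fibroblast-like cells the subset gated on Dkk2, Bmper and Lsamp (99 cells) stood at 33.9 CPM (25 to 45), which was 2.86 times (1.91 to 4.29) the level of the adventitial subset, and cells past no subset gate at 33.2 CPM (24.8 to 43.7), with 17 of 51 UMIs in 1 cell.

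The receptors of these ligands were far more restricted. Kdr (chr5:76093487-76139884, minus strand) was found in 30 of 32 blood endothelial-like cells, at 386.5 CPM (318.8 to 464.3), which is 316 times (243 to 410) the level of all other placed cells. The 7 lymphatic endothelial-like cells all held it, with 2 to 5 UMIs each. At 397.4 CPM (259.6 to 582.3) they did not differ beyond counting error from the blood endothelial-like cells (ratio 1.03, 0.644 to 1.59). In other classes Kdr was sparse. Macrophage-like cells had 0.942 CPM (0.727 to 1.2) and a UMI in 0.358% of thinned cells, and satellite cell-like, Schwann-like and smooth muscle-like cells had none. Tenocyte-like cells were at 2.91 CPM (1.63 to 4.81), but 8 of their 15 UMIs were in 1 cell.

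Flt1 (chr5:147498414-147662826, minus strand) was present in every one of the 32 blood endothelial-like cells, with 3 to 53 UMIs and a median of 13. The level was 1753 CPM (1605 to 1911), 692 times (596 to 806) that of all other placed cells. The 7 lymphatic endothelial-like cells held no Flt1 UMI, which allows up to 45.9 CPM (3 counts), whereas all 7 held Kdr. The matrix holds counts per gene, so soluble and membrane forms of Flt1 were not told apart. Among the 10 blood endothelial-like cells with at least 10000 UMIs, Flt1 was at 1036 CPM (884.3 to 1206) and Kdr at 218.4 CPM (152.1 to 303.7), lower than over all 32. Flt1 UMIs were also found in other classes. The 6 pericyte-like cells held 35 UMIs (734.8 CPM, 511.8 to 1022), but 22 of them were in 1 cell and 10 in another. Smooth muscle-like cells held 8 UMIs, all in 3 of 42 cells. The 13 blood endothelial markers summed to 398.9 CPM in pericyte-like and 159.5 CPM in smooth muscle-like cells, compared with 7622 CPM in blood endothelial-like cells. The part of endothelial RNA in the Flt1 of these 2 classes was not tested. Infiltrating monocyte-like cells stood at 13.9 CPM (11.3 to 17), from 98 UMIs in 47 cells, 19.2 times (11.2 to 34.8) the level of resident-like cells. These monocyte-like cells held 3 Kdr and no Tie1 UMIs, compared with 114 and 64 beside 517 of Flt1 in blood endothelial-like cells.

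Flt4 (chr11:49500090-49543582, plus strand) differed, like Flt1, between lymphatic and blood endothelial-like cells, in the opposite direction. All 7 lymphatic endothelial-like cells held it, with 1 to 12 UMIs, at 596.1 CPM (423.9 to 814.9). Blood endothelial-like cells held 7 UMIs in 6 of 32 cells, at 23.7 CPM (9.54 to 48.9), so the lymphatic endothelial-like level was 25.1 times (11.1 to 66.5) higher. Both groups of vessel-lining cells thus held Kdr, while Flt1 was seen in 1 and Flt4 was mainly in the other. The name of the lymphatic group rests on Prox1, Mmrn1, Ccl21a and Tbx1, which had UMIs in 4 to 7 of the 7 cells, while Stab2 had none. Elsewhere Flt4 was at or under 2.95 CPM, with no more than 6 UMIs in any class.

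**Figure D3:**
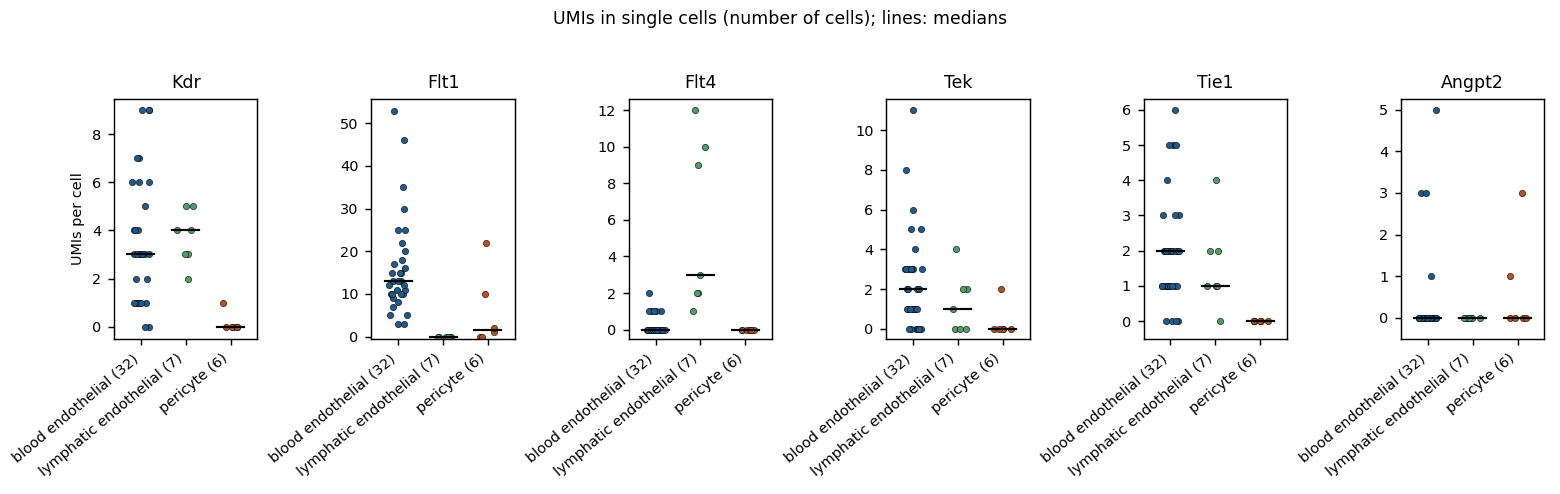
UMIs of 6 genes in single blood endothelial-like (32), lymphatic endothelial-like (7) and pericyte-like (6) cells, not scaled for depth, with medians as lines. Flt1 has a median of 13 in blood endothelial-like cells and 0 in lymphatic endothelial-like cells, Flt4 a median of 0 and 3, and Kdr is found in both.

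The blood endothelial-like cells were divided further by fixed markers into capillary (19 cells), venous (6) and arterial (1) cells, while 4 cells passed several subset gates and 2 none. Kdr was at 613 CPM (492 to 755) in capillary and 112 CPM (51 to 212) in venous cells, a ratio of 5.49 (2.77 to 12.4). Flt1 differed less, by 1.84 times (1.48 to 2.31). Of 12 Angpt2 UMIs, 8 were in 2 of the 6 venous cells and 3 in 1 of the cells past no subset gate. These are few cells of unlike depth, with a median of 5681 UMIs for capillary and 13943 for venous cells.

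Angpt1 (chr15:42288058-42540417, minus strand) encodes the activating ligand of Tek. Fibroblast-like cells led at 102 CPM (97.6 to 106.6), with 2007 UMIs in 609 of 1270 cells, 24.3 times (21.7 to 27.3) the level of all other placed cells. Tenocyte-like cells followed at 53.8 CPM (47.7 to 60.6), and the step between them was 1.9 times (1.67 to 2.16). Perineurial-like (51.6 CPM) and smooth muscle-like cells (50.9 CPM, 31.9 to 77) did not differ from tenocyte-like cells beyond counting error. T and NK-like cells stood at 28.9 CPM (9.38 to 67.4), from 5 UMIs of which 4 were in 1 cell, and did not differ from smooth muscle-like cells beyond counting error. No UMI was found in the 32 blood endothelial-like cells, which allows up to 10.2 CPM (3 counts), nor in the 75 Schwann-like cells. After thinning, 28.3% (25.9 to 30.9%) of fibroblast-like and 0.286% (0.164 to 0.465%) of macrophage-like cells held one. Barcodes of 2000 to under 5000 UMIs were not used for these levels. There Angpt1 was at 80.5 CPM (73.9 to 87.6) in fibroblast-like and 12 CPM (9.93 to 14.4) in macrophage-like barcodes, the latter compared with 0.449 CPM in the cells used.

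Angpt2 (chr8:18739202-18791603, minus strand), the context-dependent ligand of the same receptor, was a rarer message with another order of classes. Of the ranked classes, smooth muscle-like cells led at 48.6 CPM (30.1 to 74.2), from 21 UMIs in 15 of 42 cells. After thinning, 23.8% (12.1 to 39.5%) held a UMI, compared with 0.734% (0.527 to 0.994%) of macrophage-like cells. The 6 pericyte-like cells held 4 UMIs, of which 3 were in 1 cell, at 84 CPM (22.9 to 215). Blood endothelial-like cells followed at 40.7 CPM (21 to 71.1), with 12 UMIs in 4 cells, which did not differ beyond counting error (ratio 1.19, 0.561 to 2.66). Both were above fibroblast-like cells at 5.9 CPM (4.87 to 7.07), by 8.23 times (4.91 to 13.2) and 6.9 times (3.46 to 12.5). All 42 smooth muscle-like cells had at least 5.26% mitochondrial counts, so a limit of 5% leaves none of them. Without any limit, added after the data were seen, they numbered 77 and Angpt2 was at 35.8 CPM (23.9 to 51.4).

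Tek (chr4:94627291-94763224, plus strand) encodes the angiopoietin receptor. Blood endothelial-like cells led at 261.1 CPM (206 to 326.3), with a UMI in 25 of 32 cells. The 7 lymphatic endothelial-like cells held 9 UMIs, all in 4 cells, at 137.6 CPM (62.9 to 261.1), which did not differ from the blood endothelial-like level beyond counting error (ratio 0.527, 0.232 to 1.05). Of the ranked classes, fibroblast-like cells came next at 93.2 CPM (88.9 to 97.5), so the step from blood endothelial-like cells was 2.8 times (2.2 to 3.52). Satellite cell-like cells followed at 49.5 CPM (40.3 to 60.3), and 23 of their 99 UMIs were in 1 cell. Because fibroblast-like cells are many, they held 1832 of the 2118 Tek UMIs of placed cells. Tenocyte-like cells were at 5.63 CPM (3.77 to 8.09), and the fibroblast-like level was 16.5 times (11.5 to 24.8) as high. Smooth muscle-like and Schwann-like cells held no UMI, and macrophage-like cells stood at 0.913 CPM (0.701 to 1.17). After thinning, 25.7% (23.4 to 28.2%) of fibroblast-like, 15.8% (10.9 to 22%) of satellite cell-like and 0.448% (0.29 to 0.66%) of macrophage-like cells held a UMI. The fibroblast-like level depended on depth. In 2337 fibroblast-like barcodes of 2000 to under 5000 UMIs, which were not used here, Tek was at 53.6 CPM (48.3 to 59.5), and in 3144 macrophage-like barcodes of that depth at 8.23 CPM (6.51 to 10.3). With 14 barcodes that passed both the endothelial and the pericyte gate counted in, a setting added after the data were seen, the endothelial level was 186.6 CPM (150.6 to 228.6).

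Tie1 (chr4:118328385-118347261, minus strand), the partner of Tek, was close to a pure endothelial gene in these cells. It stood at 217 CPM (167 to 277) in blood endothelial-like cells and 168.1 CPM (83.9 to 300.8) in lymphatic endothelial-like cells, which did not differ beyond counting error (ratio 0.775, 0.368 to 1.48). Macrophage-like cells held 5 UMIs in 5586 cells and fibroblast-like cells 2 UMIs, both in 1 of 1270 cells. Blood endothelial-like cells held 77 Tek and 64 Tie1 UMIs, whereas fibroblast-like cells held 1832 and 2. The 13 blood endothelial markers summed to 87.1 CPM in fibroblast-like and 7622 CPM in blood endothelial-like cells. The part of endothelial RNA in the Tek of fibroblast-like cells was not tested.

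Within the fibroblast-like class Tek and Angpt1 were divided between subsets. Adventitial cells (273 cells, gated on Pi16, Dpp4 and Sema3c) held Tek at 203 CPM (190.3 to 216.2) and Angpt1 at 26.4 CPM (22 to 31.5). Parenchymal cells (144, gated on Smoc2, Cxcl14 and Hsd11b1) held Tek at 26.3 CPM (19.4 to 35) and Angpt1 at 133.3 CPM (116.9 to 151.4). The 2 genes thus stepped in opposite directions, Tek by 7.71 times (5.75 to 10.6) and Angpt1 by 5.04 times (4.05 to 6.32). A Tek UMI was found in 56.4% (50.3 to 62.4%) of thinned adventitial and 11.8% (7.03 to 18.2%) of thinned parenchymal cells. Over all fibroblast-like cells, 19.6% (15.4 to 24.3%) of those with a Tek UMI also held one of Angpt1, compared with 31.4% (28.4 to 34.5%) of those without. With cells given to the subset of the highest list, the steps were 5.16 times (4.27 to 6.3) and 3.88 times (3.29 to 4.58).

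The other subsets had patterns of their own. The Dkk2, Bmper and Lsamp subset held the most Vegfa, at 168.2 CPM (147.5 to 191), which was 2.31 times (1.86 to 2.88) the parenchymal level, and Angpt1 at 151.2 CPM (131.6 to 172.9). The Gdf10 and Inmt subset (55 cells) held Angpt2 at 59.7 CPM (41.1 to 83.8), from 33 UMIs in 16 cells, which was 23.5 times (11.8 to 50) the adventitial level. That fold was 15.3 (8.77 to 28.4) with cells given to the subset of the highest list. Vegfa was at 125.8 CPM (115.9 to 136.3) in adventitial cells. The subsets account for part of the class only, since 538 cells passed several subset gates and 151 none. In the 538 cells Tek was at 74.9 CPM and Angpt1 at 130.5 CPM.

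**Figure D4:**
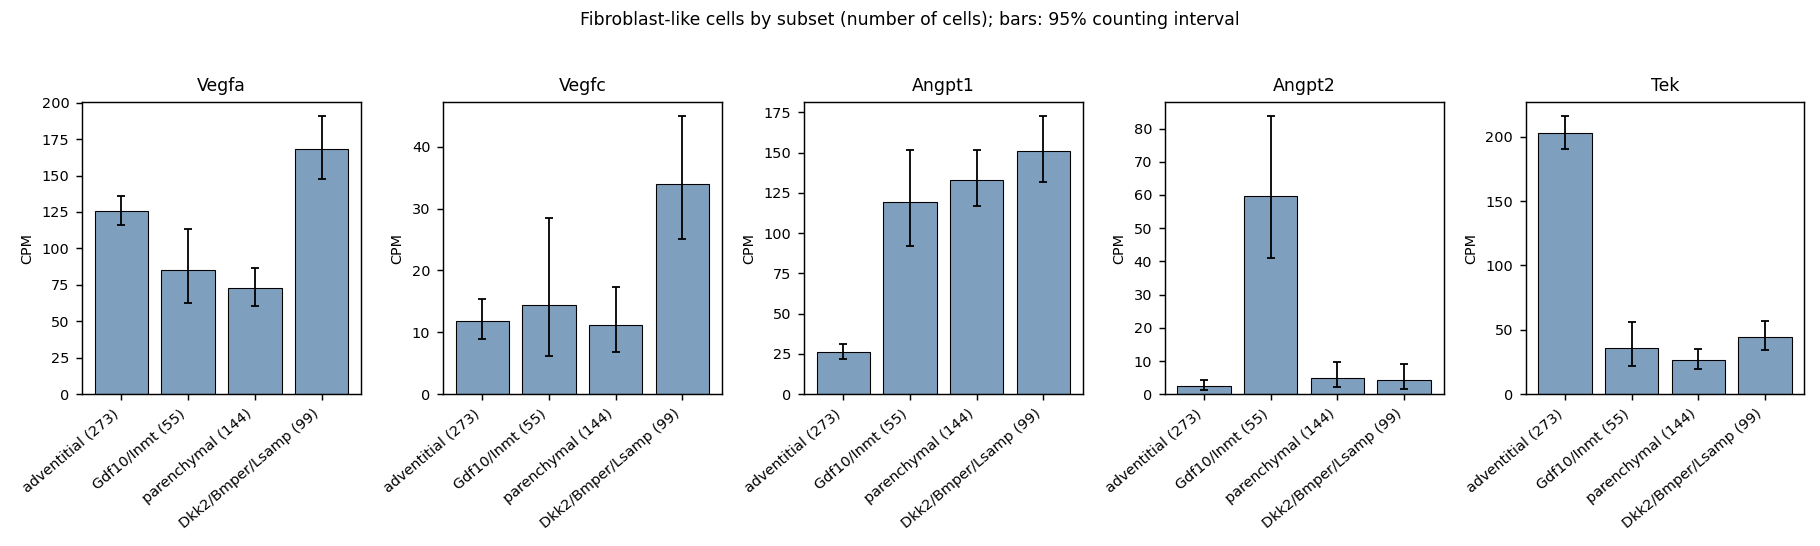
Levels of 5 genes in CPM in 4 subsets of fibroblast-like cells, with the number of cells in parentheses and 95% counting intervals as bars. Tek is highest in adventitial cells (203 CPM), where Angpt1 is lowest (26.4 CPM), Angpt2 stands out in the Gdf10 and Inmt subset (59.7 CPM), and Vegfa and Vegfc are highest in the Dkk2, Bmper and Lsamp subset (168.2 and 33.9 CPM).

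Against all genes, the 10 were counted where a class stood at least 4 times higher than all other placed cells, among 19788 genes with at least 10 UMIs. All 10 were tested. In blood endothelial-like cells 6 of them passed (Kdr, Flt1, Flt4, Angpt2, Tek and Tie1), where 5.15% of all genes did. In fibroblast-like cells 4 passed (Vegfa, Vegfc, Angpt1 and Tek), where 13.3% did. By UMIs, the other placed cells are here mostly macrophage-like. Satellite cell-like and tenocyte-like cells held more Vegfc than fibroblast-like cells, and blood endothelial-like cells more Tek. Vegfa (4.07 times) and Vegfc (4.02 times, 3.44 to 4.68) were close to the limit, and Vegfa fell below it, at 3.78 times in each case, with a minimum of 2000 or of 10000 UMIs or with the stricter filter on genes and mitochondrial counts. A single gene passed in tenocyte-like (Vegfc, beside 8.93% of all genes), satellite cell-like (Vegfc, 4.64%), smooth muscle-like (Angpt2, 5.69%), muscle fibre-like (Vegfb, 4.58%) and T and NK-like cells (Angpt2, on 3 UMIs, 4.3%). None passed in macrophage-like (6.7% of all genes), dendritic-like (3.39%), Schwann-like (8.16%), erythroid-like (0.207%) or perineurial-like cells (4.84%). Where 1 gene of 10 passed, the share is close to that of all genes, and nothing is read from it.

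A list of 36 further genes of the pathways was read the same way. In blood endothelial-like cells 9 of 36 passed, beside 5.15% of all genes. They were Ptprb (the phosphatase that acts on Tek, 1054 CPM, 941 to 1178), Aplnr and Apln (the apelin receptor and ligand), Nos3 (endothelial nitric oxide synthase), Dll4 (the Notch ligand of tip cells), Epas1 (an oxygen-regulated factor), Hspg2 (perlecan), Plcg1 (which carries the Kdr signal) and Esm1 (on 3 UMIs). The neuropilins, co-receptors for VEGF, were widespread. Nrp1 was at 454.3 CPM (380.7 to 538.1) in blood endothelial-like, 260.2 CPM in fibroblast-like and 247.7 CPM in macrophage-like cells, and passed in no class. Nrp2 was 6.33 times (6.01 to 6.68) higher in macrophage-like than in all other placed cells, and together with Dok2 (an adaptor of Tek signalling) made up the 2 of 36 in that class, a share near the 6.7% of all genes. Nrp2 was higher still in the lymphatic endothelial-like cells, at 489 CPM (335 to 690).

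In fibroblast-like cells 11 of the 36 passed, beside 13.3% of all genes. Among them were Vegfd, a lymphatic ligand like Vegfc, at 83.8 CPM (79.8 to 88), which was 107 times (83.5 to 138) the level of all other placed cells. Pgf, a ligand of Flt1, and Angpt4, another angiopoietin, were at 9.05 CPM and 9.86 CPM. Svep1, Ccbe1, Hspg2 and Sdc2, which bind or help to process these ligands, ranged from 114.9 to 306.6 CPM, and Adm, Angptl4, Grb10 and Esm1 completed the count. The protease Adamts3, which matures Vegfc with Ccbe1, was highest in tenocyte-like cells, at 290.5 CPM (276 to 305.6), 49.6 times (45.1 to 54.7) the level of all others, and with Ccbe1 and Apln made up 3 of 36 in that class, a share near the 8.93% of all genes. In smooth muscle-like cells 4 passed (Pgf, Angpt4, Epas1 and Nr4a1), beside 5.69% of all genes. Pgf there reached 74 CPM (50.6 to 104). In perineurial-like cells 5 passed (Pgf on 3 UMIs, Ccbe1, Adamts3, Hspg2 and Sdc2), beside 4.84% of all genes. In Schwann-like cells 3 passed (Pgf, Hif3a and Vash1, on 9, 4 and 4 UMIs), a share near the 8.16% of all genes. In T and NK-like cells 3 passed (Vhl, Egln3 and Sh2d2a), beside 4.3%, and in muscle fibre-like cells 1 (Egln3, an oxygen sensor, on 10 UMIs), a share near the 4.58% of all genes. None passed in satellite cell-like (4.64% of all genes), dendritic-like (3.39%) or erythroid-like cells (0.207%). Hif1a, which drives Vegfa in low oxygen, passed in no class. It was at 133.4 CPM (128.4 to 138.6) in fibroblast-like and 99.2 CPM (96.9 to 101.6) in macrophage-like cells, and no UMI was found in muscle fibre-like cells, which allows up to 14.1 CPM (3 counts).

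Genes whose pattern over classes was most like that of a member were found by the correlation of log2(CPM + 5) over the 6 classes with at least 50 cells, among 14388 genes. The 6 classes hold no endothelial cells, share 1 library and differ in depth. The closest to Vegfa was Ptp4a1 (r = 0.994), to Vegfb Aplp2 (0.969), to Vegfc Ccl27a (0.998), to Angpt1 Tbx15 (0.999), to Angpt2 Hap1 (0.988) and to Tek Tcf15 (0.993). Each r is the highest of 14388 genes over 6 values, so a value near 1 can come from the choice alone. Over all 12 classes of at least 10 cells, chosen with the values already known, the closest to Flt1 were Rasgrf2, Adgrf5 and Podxl (0.986 to 0.979), and to Kdr Pkn3, Lrg1 and B3gnt3 (0.982 to 0.977). None of the partners named over 6 classes was among the 3 closest over 12. There the closest were Pnp2 for Vegfa (0.877), 2310015A10Rik for Vegfb (0.948) and Ankrd29 for Vegfc (0.986). For Angpt1 it was Dcun1d3 (0.943), for Angpt2 Tbxa2r (0.928) and for Tek Abca4 (0.937).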

How the data were processed

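Single cells of 1 GFP+ library were measured by droplet sequencing of 3' tags. The authors deposited raw UMI counts per gene and barcode, made with Cell Ranger and not normalized. The matrix header names version 8.0.1 and the submitters' processing notes 7.1.0, with the build mm10, while the methods name both GRCm38 and GRCm39. In their own analysis the authors went on to remove free RNA with DecontX and doublets with DoubletFinder, while the deposited matrix holds whole numbers for all barcodes and was used here without a correction for free RNA. A barcode was kept if it had at least 5000 UMIs, over 200 genes and a mitochondrial share below 10% (the filters on genes and mitochondrial share are those of the study). The depth of a class, 47635 to 69019838 UMIs in all, sets the width of its intervals.

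Cells were placed by UMI sums over marker lists. The gates were set, and the 10 genes, the 36 pathway genes and the marker lists chosen, with earlier results of these data known. A pericyte-like cell also needed at least 10 Rgs5 UMIs, and lymphatic markers were read within the endothelial gate only. Tenocyte-like and perineurial-like took precedence over fibroblast-like, dendritic-like over macrophage-like and smooth muscle-like over pericyte-like. Barcodes past several gates, which can be doublets, were left out, and Scrublet (scanpy 1.11.5) was an alternative. UMIs were summed per class and given as CPM with exact Poisson intervals, shares with Clopper-Pearson and ratios with exact conditional 95% intervals. There are no replicates and no tests. Low shares seen in all classes can come from free RNA, so thinned shares of the main classes are set beside those of macrophage-like cells where these were low. Named were all 10 genes, pathway genes at least 4-fold higher in a class, and the genes most alike in pattern. Positions are from GENCODE M39, where no gene of the matrix overlaps a member on its strand (Trpt1, Gm17473 and Mcph1 overlap Vegfb, Angpt1 and Angpt2 on the other). Gates, folds and intervals were tested on simulated data. The gates named at least 80% of the simulated cells of each class rightly. These cells were drawn from the profiles of the gated classes, so this does not test whether the class names are right. In simulated blood endothelial-like cells 200 of 200 genes raised 8-fold, among 19788, were called, and 95.5% of intervals held the true fold. The raised genes were picked from those with at least 3 expected counts before the rise, so calls that rest on few UMIs were not tested. Python 3.11.15, numpy 2.4.6 and scipy 1.17.1 were used.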

Additional observations from a re-analysis of the deposited data

Results flagged for a closer look

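Flt1 was found in barcodes that the levels above do not use. In 50 blood endothelial-like barcodes of 2000 to under 5000 UMIs it was at 1924 CPM (1709 to 2158), above the 19.8 CPM that 3 counts would give. In 14 barcodes that passed both the endothelial and the pericyte gate it was at 1873 CPM (1690 to 2071), and Angpt1 had no UMI there.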

How the results depend on the processing

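No paired analysis was possible because the levels come from 1 library and from no test. Of 242 values under alternative settings, 205 stayed within the interval of the value as reported (for counts, within 1.5 times) and 37 moved. Direction could be read for folds only, and most of these are of classes picked by their level. Little is therefore read from the fact that none changed direction. Scrublet calls, a stricter gate and a higher minimum of UMIs per gene moved none, nor did 2 settings added after the data were seen (shared barcodes left out and no limit on mitochondrial counts). Folds are over all other placed cells. With at least 10000 UMIs per barcode, Flt1 was at 1036 CPM (471.3-fold) and Kdr at 218.4 CPM (184.5-fold) in blood endothelial-like cells, Vegfc at 54.8 CPM in satellite cell-like cells, and Vegfa 3.784-fold in fibroblast-like cells. With at least 2000 UMIs, Angpt1 was at 96.54 CPM (17.32-fold) and Vegfa at 104.5 CPM (3.779-fold) in fibroblast-like cells, and Flt1 491.1-fold in blood endothelial-like cells. With over 500 genes and under 5% mitochondrial counts, Angpt1 was 28.5-fold and Vegfa 3.775-fold, and no smooth muscle-like cell was left to give Angpt2. The mean of single-cell CPM gave Flt1 2207, Kdr 484.1 and Vegfa 4.505-fold. With endothelial and pericyte barcodes counted as blood endothelial-like, Tek was at 186.6 CPM (9.566-fold). With cells given to the subset of the highest list, the steps were 29.8 for Vegfa and 4.67 for Vegfb in macrophage-like cells, and 5.16 for Tek and 3.88 for Angpt1 in fibroblast-like cells. The last 2 settings were added after the data were seen. At a fold of 2, 15 pathway genes passed in blood endothelial-like and 8 in smooth muscle-like cells. A lower limit also lets a larger share of all genes pass, so nothing is read from these counts. Thinned to 1000 UMIs, shares of the leading ranked classes (for Flt4, blood endothelial-like cells) were 9.37% for Vegfa, 15% for Vegfb, 2.73% for Vegfc, 40.6% for Kdr, 65.6% for Flt1, 0% for Flt4, 7.95% for Angpt1, 2.38% for Angpt2, 28.1% for Tek and 12.5% for Tie1. Without thinning they were 61.6% for Vegfa, 28.4% for Vegfc and 48% for Angpt1. Shares of cells with a UMI fall or rise with the number of UMIs drawn per cell. The cause of the other moves was not tested. The depth of the small classes limits what can be seen, since 3 counts are 10.2 CPM in blood endothelial-like and 45.9 CPM in lymphatic endothelial-like cells.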
